A study of Homo sapiens with 3 samples.

Results

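The BCL2 family sets the threshold at which a cell commits to death through its mitochondria, and 10 of its genes were followed here in HT-29 cells: BCL2, BCL2L1 and MCL1, which oppose death, BAX and BAK1, which carry it out, and BID, BAD, BIK, BBC3 and BCL2L11, which trigger it. The genes were a chosen list, drawn up with the spread of BAX and BCL2L1 between arrays already known. Of the 10, 9 were measured, by 22 probe sets, among 11963 genes and 19065 probe sets that the arrays named with a single symbol. BBC3, which encodes PUMA, had no probe set of its own, because the probe set that carries its symbol also lists other genes, so no value is given for it.

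HT-29 is an established line of human colon adenocarcinoma cells. Its RNA was measured on Affymetrix expression arrays in a single group of 3 cultures, each treated with IFN-γ at 200 U/ml for 24 h and described by the series as biological replicates. Untreated cultures were not analysed here, so every value below is a level in treated cells and no response to IFN-γ is measured. In cultures measured in bulk, fewer cells with a transcript and less of it per cell cannot be told apart.

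Proteins of this family meet at the outer mitochondrial membrane. BAX and BAK, the effectors, form pores there that release cytochrome c, and the anti-apoptotic proteins hold them and their activators in check by binding a short helix called BH3. BH3-only proteins carry that helix as their main interaction motif and relay signals such as death receptor engagement, growth factor loss or DNA damage. In intestinal epithelium the family is known for its part in crypt cell survival and in the response of colon cancer cells to death ligands and drugs.

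The names of the probe sets do not belong to the values beside them as deposited, so the order was checked before any value was read. Probe sets of the same gene should have related signals, and across 4310 genes the mean log2 signals of the first 2 probe sets correlated with r = 0.60 (rho = 0.60) in the order used here, against r = 0.19 (rho = 0.19) in the deposited order. Genes are not independent replicates, so these are descriptions across genes. Of 1201 uniform displacements of the names, of up to 600 rows either way, a single one stood out (r = 0.50), and elsewhere the highest was 0.25.

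The order was then checked around each member separately. Probe sets within 500 rows of a member were set against probe sets of the same genes elsewhere on the array, with the members themselves left out. At the position used, r lay between 0.36 and 0.67 over 273 to 620 neighbouring probe sets, and moving the names by up to 5 rows gave at most 0.40. The position used gave the highest correlation around all 22 member probe sets. Names of 3 MCL1 probe sets lay 1 row further from their deposited place than that best uniform displacement, that of the BAD probe set 1861_at lay 115 rows from its own deposited place, and the other members sat at the uniform displacement.

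**Figure D1:**
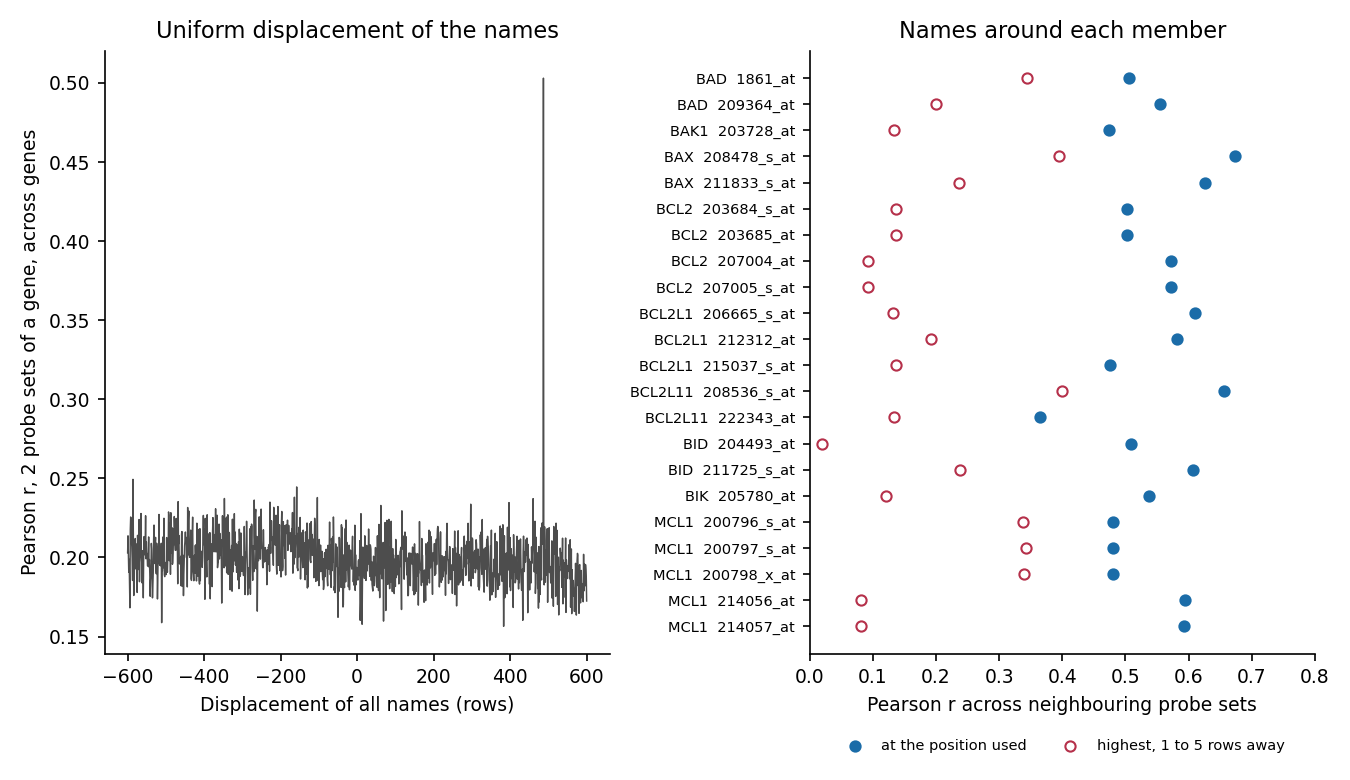
Left, Pearson correlation between probe sets of a gene, across genes, against a uniform displacement of all names in rows, with its peak of 0.50. Right, the correlation among probe sets neighbouring each member at the position used (filled points, 0.36 to 0.67) and the highest at 1 to 5 rows away (open points, at most 0.40).

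The arrays shared a common scale, with median signals of 137, 144 and 141 in replicates 1, 2 and 3. Correlations of log2 signal over detected probe sets were r = 0.95 for replicates 1 and 2, 0.94 for replicates 1 and 3 and 0.89 for replicates 2 and 3, and replicate 3 stood furthest from the others. Markers were those of epithelial cells, though they cannot tell one epithelial line from another. All 11 measured epithelial genes were detected, by 12 of 13 probe sets, beside 42.8% of all genes. Among them was the cytokeratin KRT20 at a mean signal of 4808 ± 414 (SD, n = 3). Of 29 probe sets for leukocyte, endothelial, fibroblast and smooth muscle markers limma called 0, beside 37.5% of all probe sets. Of the 29, 0 had an unadjusted p under 0.05. The leukocyte marker PTPRC, best known as CD45, had signals of at most 32.6 on any array.

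A probe set counted as detected where its signal exceeded a background limit drawn from genes of unrelated tissues. The background limit was set per array at the 95th percentile of 117 probe sets of 77 such genes (muscle, brain, liver, pancreas, testis and others), and came to 182.8, 197.2 and 180.2 signal units in replicates 1, 2 and 3. Log2 signal minus this limit was tested with limma, one-sided, with Benjamini-Hochberg adjustment over 19065 probe sets and a threshold of 0.05 on the adjusted p. Of the 117 background probe sets 2 were themselves detected, and the highest mean signal among the 117 was 501.75. A call therefore does not exclude a signal that genes of unrelated tissues can give. Of the 22 member probe sets 13 were detected, beside 37.5% of all probe sets tested, and 6 of the 9 measured genes had a detected probe set, beside 42.8% of all genes. The detected genes were MCL1, BCL2L1, BAX, BAK1, BID and BAD, and those without a detected probe set were BCL2, BCL2L11 and BIK. Signals of different probe sets depend on their probes and are not ranked against each other.

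**Figure D2:**
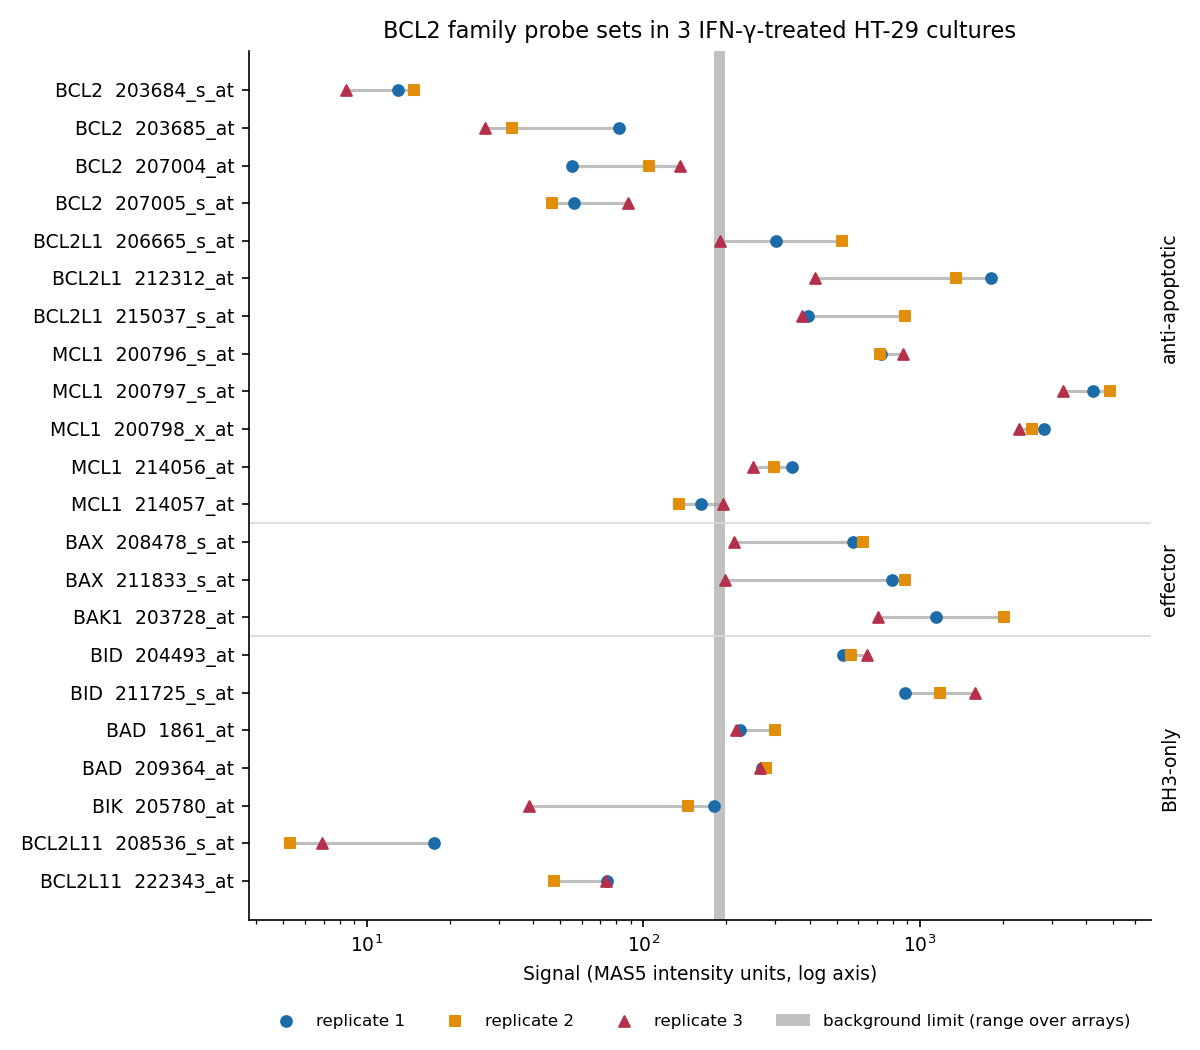
Signal of every member probe set (rows, grouped by role) on each of 3 arrays, on a log axis in MAS5 intensity units, with the grey band spanning the background limits of 180.2 to 197.2. All BCL2 and BCL2L11 values lie left of the band, and the replicate 3 triangles of BAX, BAK1 and BCL2L1 lie left of their other points.

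Promoter sequence is shown for BAX, BAK1 and BCL2L1, whose detected probe sets all had their lowest signal in replicate 3, and for BID, whose probe sets had their highest there. BAD is not shown, although its detected probe set 209364_at was also lowest in replicate 3. The windows run from 250 bases before to 50 bases after an annotated start and come from RefSeq (GRCh38.p14). BAX lies at chr19:48954625-48954924 on the plus strand, BAK1 at chr6:33580227-33580526 on the minus strand and the BID window with the most GC boxes, or the lowest start among equals, at chr22:17774420-17774719 on the minus strand. BCL2L1 has 2 windows, at chr20:31722819-31723118 on the minus strand and at chr20:31723914-31724213 on the minus strand. Each is written 5′ to 3′ on its own strand, and capitals mark the GC box GGGCGG in either orientation.
BAX: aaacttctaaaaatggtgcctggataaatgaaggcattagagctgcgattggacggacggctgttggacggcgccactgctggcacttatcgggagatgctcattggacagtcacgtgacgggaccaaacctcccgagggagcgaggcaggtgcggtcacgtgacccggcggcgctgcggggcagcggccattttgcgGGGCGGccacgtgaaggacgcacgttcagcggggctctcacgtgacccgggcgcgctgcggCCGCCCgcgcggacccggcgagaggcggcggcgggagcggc
BAK1: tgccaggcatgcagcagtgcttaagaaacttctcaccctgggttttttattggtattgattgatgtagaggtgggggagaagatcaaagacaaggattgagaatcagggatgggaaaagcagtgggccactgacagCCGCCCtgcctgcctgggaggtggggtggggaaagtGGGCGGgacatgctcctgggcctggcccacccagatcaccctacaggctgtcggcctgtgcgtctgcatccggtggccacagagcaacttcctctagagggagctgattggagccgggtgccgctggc
BCL2L1, window at the lower coordinate: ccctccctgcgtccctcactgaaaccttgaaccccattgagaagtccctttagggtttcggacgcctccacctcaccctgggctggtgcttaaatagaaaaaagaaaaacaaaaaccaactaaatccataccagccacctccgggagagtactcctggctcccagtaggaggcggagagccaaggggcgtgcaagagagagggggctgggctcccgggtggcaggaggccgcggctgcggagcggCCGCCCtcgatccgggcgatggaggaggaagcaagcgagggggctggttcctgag
BCL2L1, window at the higher coordinate: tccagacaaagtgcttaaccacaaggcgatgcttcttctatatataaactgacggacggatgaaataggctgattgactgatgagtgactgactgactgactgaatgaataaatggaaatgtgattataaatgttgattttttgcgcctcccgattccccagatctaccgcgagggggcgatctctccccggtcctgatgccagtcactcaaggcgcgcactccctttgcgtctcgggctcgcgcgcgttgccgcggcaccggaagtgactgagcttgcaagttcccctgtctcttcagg
BID: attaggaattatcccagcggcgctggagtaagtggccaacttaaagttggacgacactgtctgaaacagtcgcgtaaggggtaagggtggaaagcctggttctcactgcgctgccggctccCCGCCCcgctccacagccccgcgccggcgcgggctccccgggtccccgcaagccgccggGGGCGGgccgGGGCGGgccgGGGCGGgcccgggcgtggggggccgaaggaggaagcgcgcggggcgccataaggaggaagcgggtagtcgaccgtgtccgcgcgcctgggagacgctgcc

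The GC box, the letters recognised by SP1-type factors, was present in the only window of BAX and of BAK1, in 1 of the 2 BCL2L1 windows and in 4 of the 5 BID windows, of which the one shown was picked for it. Over the table it occurred in 10 of 14 member windows, some of which overlap, belonging to 6 of 8 genes, and in 45.0% of 35116 promoter windows of the same length. These matches are descriptions of the windows alone, and MCL1 and BIK had no entry.

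Among the anti-apoptotic genes, MCL1 was detected by 4 of its 5 probe sets. Their SDs were 0.15 to 0.28 log2 units, beside a median of 0.29 over all detected probe sets. MCL1 is a short-lived protein that restrains BAK and the BH3-only protein BIM. Its probe set 200797_s_at had signals of 4208, 4865 and 3298 in replicates 1, 2 and 3, which averaged 4.45 ± 0.17 log2 units (SE, n = 3) over the limit (limma adjusted p = 2.9e-07). The SD of its log2 signal was 0.28. Replicate 3 was lowest, but all arrays lay far above the limit.

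Probe set 200798_x_at of MCL1 gave 2812, 2539 and 2280 (limma adjusted p = 3.8e-07), with an SD of 0.15 log2 units. The suffix _x_at marks a design to which related sequences can contribute. With 200796_s_at the signals were 724, 720 and 870 (limma adjusted p = 1.1e-05), so here replicate 3 was highest. The call of this probe set rests on the extra row of displacement: with its name at the uniform displacement it was at -1.06 log2 units relative to the limit. There 200797_s_at and 200798_x_at stayed detected, at 2.03 and 4.44 log2 units over the limit, so their values rest on that row too.

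A weaker MCL1 probe set, 214056_at, had signals of 345, 298 and 250 and passed at a limma adjusted p of 0.0153, which became 0.181 without replicate 1. The remaining one, 214057_at, had 162, 135 and 194 and was not detected, with replicate 3 alone above its limit. The probe sets of MCL1 thus disagreed in which culture was highest, and their SDs ran from 0.15 to 0.28 log2 units.

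BCL2L1 was detected by all 3 of its probe sets and varied strongly. It encodes BCL-xL, which sequesters BAX, BAK and several BH3-only proteins, and by alternative splicing also a short pro-apoptotic form. Probe set 212312_at had signals of 1808, 1351 and 418 in replicates 1, 2 and 3, an average of 2.43 ± 0.36 log2 units (SE, n = 3) over the limit (limma adjusted p = 0.00041). Replicate 3 minus the mean of the other two cultures was -1.90 log2 units, and its SD of 1.12 fell to 0.30 without that array.

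The other BCL2L1 probe sets end in _s_at, which marks probes that several transcripts share. For 215037_s_at the signals were 393, 886 and 374 (limma adjusted p = 0.00098), so replicates 1 and 3 lay close together and replicate 2 stood higher. For 206665_s_at they were 303, 523 and 189 (limma adjusted p = 0.039), with replicate 3 just 0.07 log2 units over its limit. That last call was lost without replicate 1 (adjusted p = 0.102 by limma) and without replicate 2 (0.234). All 3 probe sets were lowest in replicate 3, but they differed in whether replicate 1 or 2 was highest.

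BCL2, the founding member of the family, was not detected by any of its 4 probe sets. Its brightest, 207004_at, had signals of 55.2, 105 and 136, all under the limit. Those of 207005_s_at were 56.4, 46.7 and 88.3, those of 203685_at were 81.9, 33.7 and 26.9, and those of 203684_s_at were 13.0, 14.9 and 8.46. Means of the 4 lay between -3.98 and -1.02 log2 units relative to the limit, and their order across cultures differed, which at this level shows no pattern of the gene.

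Both effectors were detected, and all 3 of their probe sets were lowest in replicate 3. BAX, which moves from the cytosol to mitochondria when activated, had signals of 793, 886 and 197 with 211833_s_at, an average of 1.47 ± 0.39 log2 units (SE, n = 3) over the limit (limma adjusted p = 0.0089). Replicates 1 and 2 lay more than 2 log2 units above the limit and replicate 3 at 0.13 above it. With 208478_s_at the signals were 574, 621 and 213 (limma adjusted p = 0.0072), and replicate 3 was again the low one, at 0.24 log2 units above the limit.

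The SDs of the BAX probe sets were 1.21 and 0.86 log2 units. Between replicates 1 and 2 alone the SD of 211833_s_at was 0.11. Neither BAX call held when the limit was raised to the 99th percentile (limma adjusted p = 0.0603 for 211833_s_at and 0.117 for 208478_s_at). BAK1, which resides in the mitochondrial membrane, was measured by 203728_at at 1144, 2012 and 708 (limma adjusted p = 3.1e-05), an average of 2.66 ± 0.26 log2 units (SE, n = 3) over the limit. Its highest array was replicate 2, and replicate 3 minus the lower of the other two was -0.69 log2 units.

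Of the BH3-only genes, BID was detected by both probe sets and was highest in replicate 3. BID is cleaved by caspase-8 and so connects death receptors to mitochondria. With 211725_s_at its signals were 884, 1179 and 1579 in replicates 1, 2 and 3 (limma adjusted p = 6.9e-06), and with 204493_at they were 528, 562 and 644 (limma adjusted p = 4.7e-05). The 2 probe sets ordered the cultures alike, with SDs of 0.42 and 0.15 log2 units.

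BAD, which binds BCL2 and BCL-xL unless phosphorylated and held by 14-3-3 proteins, lay close to the limit. Probe set 209364_at gave 268, 278 and 264 (limma adjusted p = 0.032), the smallest SD of any member probe set at 0.04 log2 units. The call was lost without replicate 1 (limma adjusted p = 0.188), without replicate 2 (0.0682) and without replicate 3 (0.0592). With 1861_at the signals were 224, 299 and 216, above the limit on all 3 arrays but not detected (limma adjusted p = 0.12).

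BIK, a BH3-only protein of the endoplasmic reticulum, had signals of 179.8, 145 and 38.7 with its only probe set, 205780_at, all under the limit of the same array (limma adjusted p = 1). Replicate 3 minus the mean of the others was -2.06 log2 units, and the SD of 1.20 rests on background-level values. BCL2L11, which encodes the BH3-only protein BIM, was not detected, with signals of 74.3, 47.8 and 73.2 for 222343_at and of 17.6, 5.29 and 6.88 for 208536_s_at.

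The members were also counted by the array on which each was lowest. Of the 13 detected member probe sets 10 were lowest in replicate 3, beside 42.5% of all detected probe sets, and 3 were highest there. The median difference between replicate 3 and the mean of the others was -0.46 log2 units over these 13 and -0.04 over all 7150 detected probe sets. By role the medians were -1.48 for 3 effector probe sets, -0.46 for 7 anti-apoptotic ones and 0.24 for 3 BH3-only ones. BAX and BCL2L1 were chosen with their spread known, so these counts and medians are a description and were not tested. Without those genes 5 of 8 detected probe sets were lowest in replicate 3, and the median difference was -0.14 log2 units. Replicate 2 was the highest array for both BAX probe sets, BAK1 and BCL2L1 206665_s_at and 215037_s_at. It was also highest for MCL1 200797_s_at and BAD 209364_at. The share of all detected probe sets highest in replicate 2 was not counted, so nothing is read from this.

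A stricter count asked for a signal in replicate 3 more than 2-fold under both other arrays. It held for 3 of the 13 detected member probe sets, both of BAX and 212312_at of BCL2L1, beside 2.97% of all detected probe sets. Nothing is read from that, since the spread of these genes chose them, and without BAX and BCL2L1 the count was 0 of 8. With undetected probe sets included it held for 4 of 22, BIK being added, beside 6.35% of all probe sets. Under quantile normalization and after centring each array on its median the count was also 4. No detected member was more than 2-fold above both others in replicate 3, beside 0.895% of all detected probe sets. In replicate 2 this held for 215037_s_at of BCL2L1, beside 48 of all 7150 detected probe sets.

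**Figure D3:**
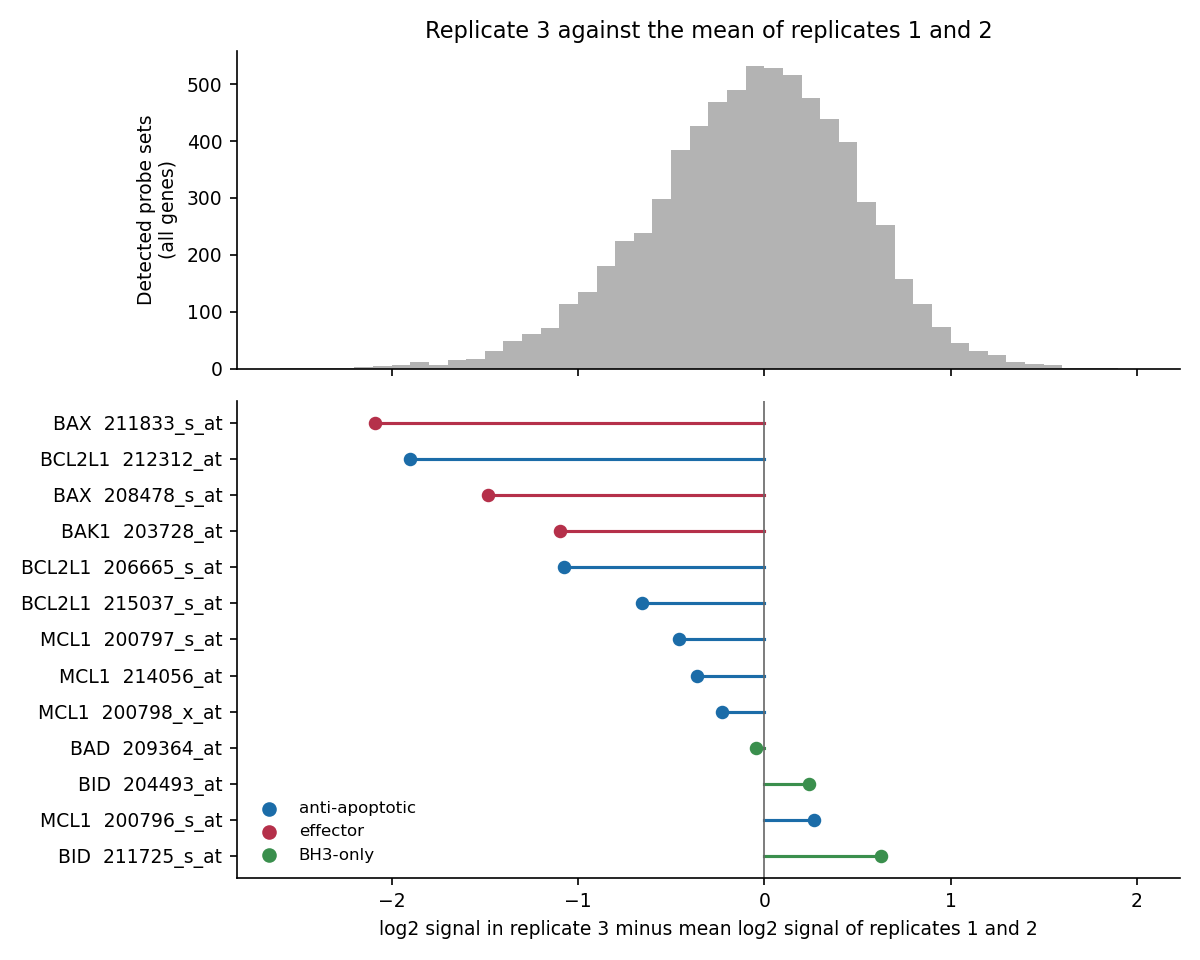
Log2 signal in replicate 3 minus the mean of replicates 1 and 2, as a histogram over 7150 detected probe sets of all genes (top) and for the 13 detected member probe sets coloured by role (bottom). BAX 211833_s_at (-2.09) and BCL2L1 212312_at (-1.90) lie in the left tail, and BID 211725_s_at (0.63) lies right of zero.

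In replicate 3, BAX, BAK1 and BCL2L1 were all under the mean of the other arrays. BID was above it, MCL1 had 3 detected probe sets below it and 1 above, and BAD 209364_at lay at -0.05 log2 units. BAX and BCL2L1 were chosen with their spread known, so nothing is read from this about the anti- and pro-apoptotic sides. Over the same arrays the median difference was 0.12 for detected epithelial markers and 0.29 for detected housekeeping genes. Their part in the result was not tested.

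Base composition was set beside the difference, since the tables hold promoter sequence for 85.6% of detected probe sets. The median difference of replicate 3 was 0.12 log2 units for 748 probe sets of genes with under 55% G and C in the promoter and -0.21 for 719 with 75% or more. Between these bands it was 0.0013 for 2333 probe sets at 55 to 65% and -0.09 for 2321 at 65 to 75%, the bands that hold the members named next. Across 6121 probe sets r was -0.19, a description across genes that share the same 3 arrays. BAX had 67.3% and BCL2L1 56.7% (a mean of 2 windows), whereas BID, which was higher in replicate 3, had 68.3% over its windows and BAK1 had 58.7%. The part of base composition in the result was not tested.

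Genes whose profile over the 3 arrays was most like that of a member were named by the distance between mean-centred log2 signals, among detected probe sets. For BAX 211833_s_at the nearest were ARHGDIA at 0.07 log2 units, PAK4 at 0.18, PIEZO1 and NUCB1 at 0.19 and CSNK1D at 0.24. For BCL2L1 212312_at they were CALR at 0.07, PSME3 at 0.22, TMEM259 at 0.23, PAK4 at 0.26 and PEX14 at 0.28. With 3 arrays this likeness amounts to a low value in replicate 3, and PAK4 stood in both lists.

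Other genes of the family, together with BNIP proteins, were taken from a list of 15, of which 12 were measured by 19 probe sets. Detection by limma held for 7 of the 19 probe sets and 6 of the 12 genes, beside 37.5% of all probe sets and 42.8% of all genes, which is near the background. PMAIP1, which encodes NOXA, a BH3-only protein that binds MCL1, had signals of 1559, 1381 and 1354 with 204285_s_at (limma adjusted p = 1.0e-06). Its other probe set, 204286_s_at, had 485, 237 and 424 (limma adjusted p = 0.0088), with replicate 2 lowest.

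BCL2L2, the anti-apoptotic BCL-w, had nearly equal signals of 357, 359 and 369 (limma adjusted p = 0.0014). BCL2L13, a mitochondrial protein known as a receptor in mitophagy, had 875, 760 and 710.2, and BCL2L14, or BCL-G, had 789, 675 and 604, both detected by limma with adjusted p of 9.1e-06 and 1.9e-05. BNIP2, a BCL2-interacting protein, had 419, 330.3 and 699 (limma adjusted p = 0.0017), so replicate 3 was highest. BNIP1, a SNARE protein of the endoplasmic reticulum, passed with 1 of 3 probe sets, 37226_at, at 253, 293 and 262 (limma adjusted p = 0.034).

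Genes with no detected probe set were BCL2A1, BCL2L10, BOK, HRK, BNIP3 and BNIP3L. BCL2A1, an anti-apoptotic gene best known from blood cells, had signals of 8.44, 6.83 and 5.61. BOK, a relative of BAX and BAK, had 9.27, 11.1 and 8.31, and the brightest probe set of BNIP3, a mitophagy receptor induced by hypoxia, had 50.01, 26.5 and 67.8. BNIP3L was above the limit on all 3 arrays with 221479_s_at, at 194, 219 and 248, without passing limma's test (adjusted p = 0.36).

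**Figure D4:**
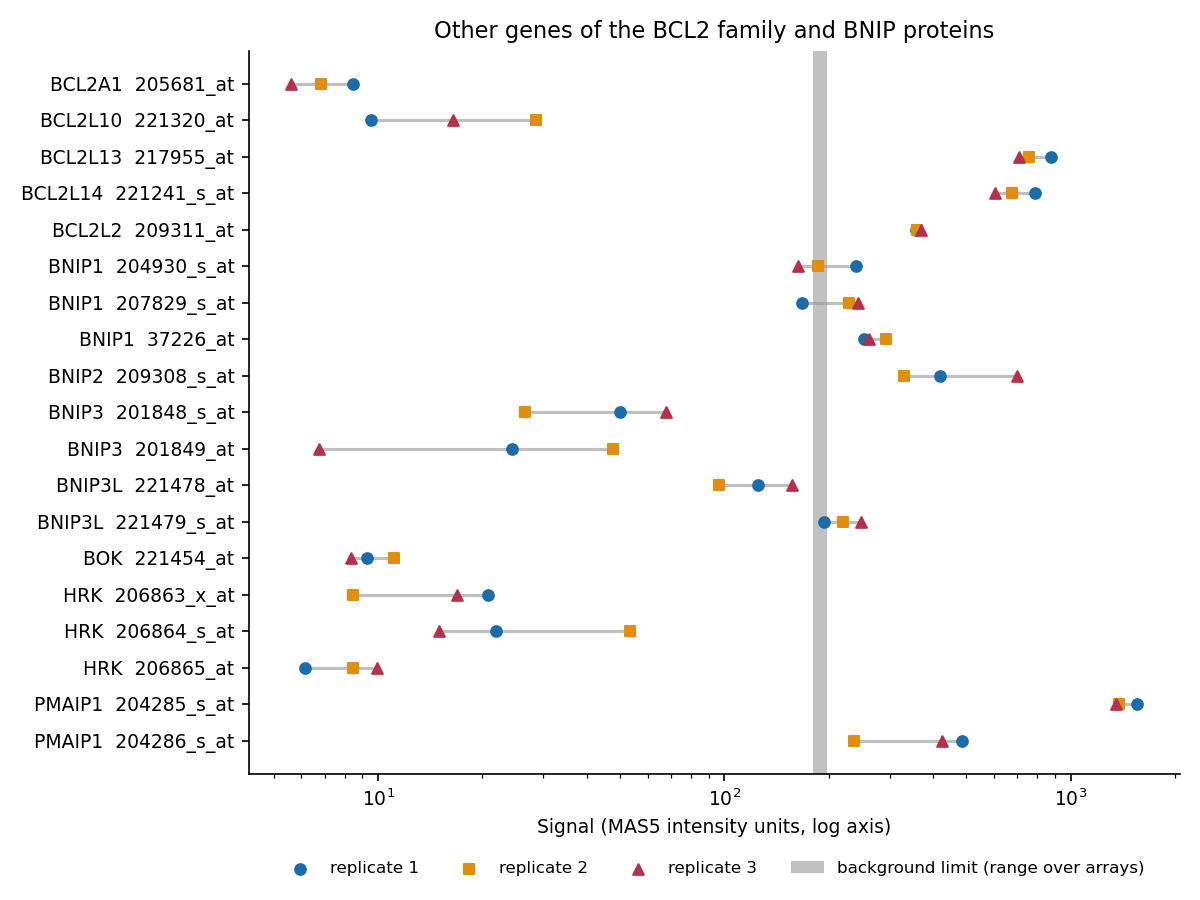
Signal of 19 probe sets of 12 further genes on each of 3 arrays, on a log axis in MAS5 intensity units, with the grey band spanning the background limits. PMAIP1, BCL2L13, BCL2L14, BCL2L2 and BNIP2 lie right of the band on all arrays, and BCL2A1, BOK and HRK lie far left of it.

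Partners and regulators of the pathway, a list of 46 genes of which 40 were measured, were detected for 65 of 93 probe sets and for 33 genes, beside 37.5% of all probe sets and 42.8% of all genes. Their median difference of replicate 3 from the others was 0.06 log2 units over detected probe sets, and 1 of the 65 was more than 2-fold under both other arrays. This was YWHAE 210317_s_at, a 14-3-3 protein, with 2539, 3042 and 1189. It had the next largest SD of the detected partners after the kinase AKT1, whose 207163_s_at gave 539, 1062 and 367 and an SD of 0.78 log2 units.

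The 14-3-3 protein SFN followed at 656, 1051 and 453 with 209260_at, and then YWHAQ at 3761, 2788 and 6278 with 212426_s_at. Whereas AKT1, YWHAE and SFN were lowest in replicate 3, YWHAQ was highest there. PEA15, a death effector domain protein, had 499, 722 and 347 with 200787_s_at, and BIRC2, an inhibitor of apoptosis, had 2166, 1201 and 2172. SFN and PEA15 also had steadier detected probe sets. The SDs of the brighter SFN 33322_i_at and 33323_r_at were 0.27 and 0.13 log2 units, and that of PEA15 200788_s_at was 0.16.

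Small spreads were also found in the pathway. DIABLO, the mitochondrial protein that blocks inhibitors of apoptosis, had 2276, 2190 and 2284, an SD of 0.03 log2 units. The outer membrane channel VDAC1 had 2878, 2676 and 2924 with 212038_s_at, and the caspase-8 regulator CFLAR had 1342, 1428 and 1452 with 210563_x_at. DYNLL1, a dynein light chain, had 6073, 5762 and 5740.3, and the 14-3-3 proteins YWHAQ (200693_at) and YWHAB (217718_s_at) had 8048, 8266 and 7865 and 8067, 8677 and 9074. YWHAQ therefore appeared among both the steadiest and the most variable genes, through different probe sets. Each gene is shown here by its steadiest detected probe set. Further detected ones of VDAC1 (217140_s_at), CFLAR (210564_x_at) and YWHAB (217717_s_at) had SDs of 0.27, 0.29 and 0.47 log2 units. CFLAR also had probe sets that were not detected, such as 214486_x_at with an SD of 0.78.

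No probe set of APAF1, ENDOG, FBXW7, HTRA2, MDM2, PIM1 or XIAP was detected. APAF1, the scaffold of the apoptosome that cytochrome c assembles, had 193, 213 and 111 with its brightest probe set, over the limit on 2 of 3 arrays. HTRA2, a mitochondrial protease, had 229.97, 511 and 199 and was above the limit on all arrays without passing (limma adjusted p = 0.073). XIAP, an inhibitor of caspases, had 239.7, 184 and 328 (limma adjusted p = 0.187).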

How the data were processed

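Total RNA from 3 cultures was measured on Affymetrix arrays. The deposited values are linear MAS5 signal intensity per probe set, for which the submitters' processing notes name Affymetrix Expression Console 1.1 and the MAS5 method. The background step, presence calls and scaling target are not given in the sources used here. The 3 arrays had trimmed means of 500.0 (without the outer 2% at either end), so they were scaled to a common level before deposit.

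Of 22283 rows 6 were empty. The order used places 15 values without a name ahead of the 100 probe sets with the lowest six-digit numbers, then 493 with shorter numbers, the 21622 others as listed, and finally 47 values without a name. The order was chosen with the data in view. Names came from the platform annotation, updated through a RefSeq table by gene ID. Probe sets with 1 symbol numbered 19071, and 19065 of these could be placed.

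Signals were taken to log2 with no pseudocount. Signals minus each array's limit were fitted per probe set with limma 3.58.1 under R 4.3.3, letting the prior variance follow mean signal. The limit was treated as known. On simulated data with 19065 probe sets, 92 of 100 set 1 log2 unit over the limit were recovered, as were 100 of 100 set 2 units over it, and 8 of 10197 under the limit were called. The noise was drawn separately for each array, and many probe sets under the limit lay far below it. That low count of false calls therefore says little about calls near the limit. The members and lists were chosen with earlier results of these data known. Named were all members, all measured genes of the other-family list and, of the partners, those with the 6 largest and 6 smallest SDs among detected probe sets and those with none detected. Alternatives were the order of names, scaling, limit, variance model, a pseudocount of 16, probe set design and each replicate left out. The number of arrays limits the precision. Nothing in the labels says how separate the cultures were beyond the series' term biological replicates.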

Additional observations from a re-analysis of the deposited data

How the results depend on the processing

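The count of 13 detected member probe sets ranged from 10 to 12 with 1 replicate left out, and that of all probe sets, 7150, from 6489 to 7192. The member count was 6 of 11 without probe sets suffixed _x_at or _s_at (3375 of 10100 overall). With the limit at the 99th percentile it was 8 of 22 (5511 of 19065 overall). In the deposited order of names it was 1 of 22 (418 overall), that 1 being BAD 1861_at. BAD 1861_at was also detected at the 90th percentile and without suffixed probe sets (limma adjusted p = 0.023 and 0.025). The probe set correlation of 0.60 was 0.19 in the deposited order, 0.50 with all names at the best uniform displacement, and 0.52 over probe sets whose names differ in their first 3 characters. The median SD of all 22 member probe sets, 0.45, ranged from 0.21 (without replicate 3) to 0.45 when a replicate was left out. The count of 4 probe sets more than 2-fold lower in replicate 3 was 1 in the deposited order and 2 without suffixed probe sets. In the deposited order every detected member fell under the limit: BAD 209364_at at -1.95 log2 units, BAK1 at -6.41, BAX at -7.98 and -5.74, BCL2L1 at -5.14, -6.05 and -3.68, BID at -6.64 and -5.28, and MCL1 at -5.32, -4.72, -4.71 and -4.59. BAD 209364_at also lay under the limit at the 99th percentile (-0.11), and MCL1 200796_s_at with all names at the uniform displacement (-1.06). Apart from the deposited order, 7 of the 13 calls held under each alternative that kept their probe set (4 of the 7 are suffixed and had no value where such probe sets were left out), and the exceptions were BAD 209364_at, both BAX probe sets, BCL2L1 206665_s_at, and MCL1 200796_s_at and 214056_at. Without the variance trend, 2 calls were lost, those of BAD 209364_at and BCL2L1 206665_s_at. The cause of these changes was not tested. No paired analysis was possible because there is a single group of samples. Signals near the limit carry little information on order between cultures, and no depth is defined for arrays.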
